A study of Mus musculus with 6 samples.

Results

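Amacrine cells were examined in single-cell RNA sequencing of mouse retinas with and without oxygen-induced retinopathy (OIR). A cell was counted as an amacrine cell when at least 2 of Tfap2a, Tfap2b, Gad1, Gad2, Slc32a1, Slc6a9 and C1ql2 were detected and Trpm1, Rlbp1 and Arr3, which mark bipolar cells, Müller glia and cones, had 0 unique molecular identifiers (UMIs). The cells were thus chosen by measured expression, and these 10 genes are given below without a test. The rule found 222 amacrine cells among 38569 cells that passed the filters on detected genes and mitochondrial counts, or 0.576%. The 3 OIR samples came from pups exposed to 75% oxygen between P7 and P12 and returned to room air for 5 days, and the 3 control samples came from pups kept in room air throughout. All retinas were taken at P17, and each sample pooled the retinas of 2 mice. Strain and sex are not given in the sources used here. The labels name the material as retinal endothelial cells, but the matrices held whole retina, with 4767 bipolar cells and 3160 Müller cells by fixed marker rules.

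Amacrine cells are the inhibitory interneurons of the inner retina. They receive glutamate from bipolar cells and feed back onto bipolar cells, other amacrine cells and ganglion cells, and most release GABA or glycine. Gad1 and Gad2 make GABA, Slc32a1 loads GABA and glycine into synaptic vesicles, Slc6a9 takes up glycine, and Tfap2a and Tfap2b are transcription factors of the lineage. In OIR, high oxygen halts growth of the retinal vessels, and the return to air leaves the inner retina, where amacrine cells lie, short of oxygen.

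The samples did not contribute evenly. Control replicate 1 held 107 amacrine cells, or 48.2% of them all, while control replicates 2 and 3 held 16 and 25 and OIR replicates 1 to 3 held 19, 20 and 35. The amacrine cells of the OIR replicates had medians of 12224, 2500 and 2365 UMIs per cell, and those of the control replicates had 10186, 2875 and 4316. Summed over its amacrine cells, a sample held between 67199 UMIs, in OIR replicate 2, and 990446, in control replicate 1. Xist and Y-linked UMIs over all cells showed male libraries in the 3 OIR samples and control replicate 1 and female libraries in control replicates 2 and 3, so that sex moved in part with the group. Between 9 and 34 deposited barcodes were shared by any 2 libraries, of which 3 to 17 passed the filters in both.

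A pair of amacrine cells carried much microglial or stromal RNA, and they are called below the 2 cells with RNA of another type. Rod RNA was not part of this choice. One, in OIR replicate 1, had 443 UMIs of 9 microglia markers, 3.62% of its 12224 UMIs, beside Tfap2b and Slc32a1. The other, in OIR replicate 3, had 1538 UMIs of 9 stromal genes, 12.04% of its 12773 UMIs, and no Pax6 UMI. Results that rest on these 2 cells are given with and without them. Rod markers took over 1% of UMIs in 34 of 160 GABAergic, 13 of 43 glycinergic and 8 of 19 untyped cells (classes defined below). In OIR replicate 3 these were 6 GABAergic, 4 glycinergic and 7 untyped of its 35 cells. The highest share was 9.71%, in a cell of control replicate 1 with no Pax6 UMI.

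The label was checked with Pax6, a transcription factor of amacrine cells, Müller glia and the eye field, which the rule did not use. A Pax6 UMI was found in 79.3% of the amacrine cells, in 71.8% of Müller cells and in 3.61% of bipolar cells, whose median depth per sample was 6042 to 9378 UMIs. Among cells with none of the 3 absent genes, Pax6 was detected in 1.503% of 23885 cells with none of the 7 genes and in 2.49% of 1645 cells with 1 gene, just outside the rule. It was detected in 44.4% of the 63 cells with 2 genes, just inside it, and in 83.3% of the 30 cells with 3 genes, 87.8% of the 41 with 4 and 97.3% of the 37 with 5. All 49 cells with 6 genes and both cells with 7 held a Pax6 UMI. Cells with 2 genes had a median of 1818 UMIs, against 3862 UMIs in cells with 3 genes. The cells at the edge of the rule were thus shallow and had Pax6 less often than the rest. The label was borne out for most but not all of the cells, and unevenly by sample. A Pax6 UMI was least frequent for OIR replicate 2, at 55.0%, OIR replicate 3, at 60.0%, and control replicate 2, at 62.5%. OIR replicate 1 had 84.2%, control replicate 3 88.0% and control replicate 1 89.7%. Cells with only 2 genes were 5 of 19, 13 of 20 and 21 of 35 over OIR replicates 1 to 3. Over control replicates 1 to 3 they were 12 of 107, 5 of 16 and 7 of 25. The OIR comparisons below thus rest in part on less certain cells.

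**Figure D1:**
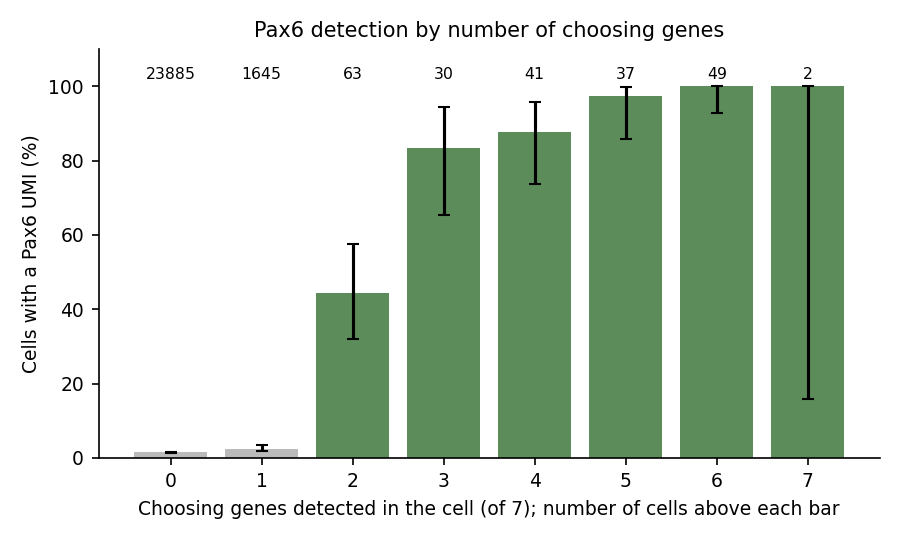
Share of cells with a Pax6 UMI (y axis, percent) against the number of the 7 choosing genes detected (x axis), among cells with 0 UMIs of Trpm1, Rlbp1 and Arr3, with the number of cells above each bar. Bars are shares over all 6 samples with exact 95% binomial intervals that cover counting error only. Green bars are the amacrine cells, where the share climbs from 44.4% to 100%, and grey bars are cells outside the rule, at 1.503% and 2.49%.

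The choosing genes are given as a description, since they set the membership. Tfap2b, the most abundant of them, stood at 1141, 565 and 1907 CPM (UMIs of a gene divided by all UMIs of the cells, scaled as counts-per-million) in the amacrine sums of OIR replicates 1 to 3 and at 1784, 2029 and 1822 CPM in the control replicates. Slc32a1 was detected in 83.3% of the cells, Tfap2b in 61.7%, Gad1 in 59.5%, C1ql2, a secreted complement-like synaptic protein, in 57.2%, Gad2 in 51.8%, Tfap2a in 49.1% and Slc6a9 in 30.6%. In bipolar cells none of the 7 genes was detected in more than 2.31% of cells. Over all other kept cells, Slc6a9 was detected in 3.28% to 6.59% of cells per sample. The other choosing genes were detected in at most 1.15%. OIR replicate 2 was the lowest sample for Tfap2a, Tfap2b, Gad1 and C1ql2 and the highest for Slc32a1, at 938 CPM, and Slc6a9, at 551 CPM. Pax6 itself ranged from 540 to 722 CPM in the OIR samples and from 527 to 776 CPM in the control samples, and the groups overlapped.

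Genes of amacrine subtypes were detected unevenly, and in shallow cells a gene with no UMI may still be expressed. Cartpt, which encodes the peptide precursor CART, was the most abundant neuropeptide. Its UMIs were found in 82 cells, 36.9% of the amacrine cells, against 2.27% of bipolar and 3.20% of Müller cells, and it took 25419 UMIs in all. Cartpt was concentrated in few cells: 7 of 25 cells of control replicate 3 held at least 100 UMIs, with a maximum of 1306, and the median cell of every sample held 0. Genes of the AII amacrine cell, the glycinergic relay of the rod pathway, varied, with Cacng3, a subunit of AMPA receptor complexes, in 99 cells, the transcription factor Nfia in 77, Gjd2, its gap junction protein, in 61, Dab1, an adaptor protein, in 49, Calb2, a calcium-binding protein, in 44 and the transcription factor Prox1 in 40. Gjd2 and Prox1 are not particular to amacrine cells, since Gjd2 was found in 28.3% and Prox1 in 79.6% of bipolar cells. Of the 10 genes listed for starburst amacrine cells, the cholinergic cells of direction selectivity, those of acetylcholine itself were rare, with Chat, the synthesis enzyme, in 2 cells and the carriers Slc18a3 in 7 and Slc5a7 in 5. Others of that list were more frequent, with Slit2 in 69 cells, Rnd3 in 49 and Isl1 in 11. Th, the dopamine-synthesis enzyme, was detected in 7 cells while Nr4a2, a transcription factor of the same list, was in 55, Nos1, which makes nitric oxide, in 5, and Ppp1r17, a marker of cells that are neither GABAergic nor glycinergic, in 12. The peptide genes Tac1, Vip and Npy were found in 18, 11 and 10 cells. Several of these counts came mostly from control replicate 1. It held 10 of the 11 cells with Vip and 10 of the 11 with Isl1. It also held 6 of the 7 cells with Th, 4 of the 5 with Nos1, and all those with Chat or Slc18a3. Npy UMIs were also found in 21.2% of Müller cells, above the 4.50% of amacrine cells, so that its share alone is not read as expression. Its level over all samples was 170 CPM in amacrine and 93.1 CPM in Müller cells. The amacrine Npy UMIs were 208 in 6 cells of control replicate 1, 51 in 1 cell of control replicate 2 and 26 in 3 cells of OIR replicate 3. Slc17a8, the vesicular glutamate transporter VGLUT3, and the peptide genes Sst and Crh had 0 UMIs in the 222 cells, which allows a share of up to 1.35% of cells with a UMI.

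Transcription factors of neighbouring neurons were at or near 0, and other genes of their lists were not. The horizontal cell factors Lhx1, Onecut1 and Onecut2 were detected in 2, 1 and 3 cells, but Slc4a3 was in 126, Tpm3 in 92, Sept4 in 91 and Calb1 in 44. Of the ganglion cell genes, Pou4f1 and Pou4f2 had 0 UMIs, Slc17a6 was in 1 cell and Rbpms in 10, but Thy1 was in 61.

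The share of amacrine cells is set by the choosing genes and is given as a description. They made up 0.314%, 0.364% and 0.469% of the cells of OIR replicates 1 to 3 (0.382% ± 0.0790, SD, n = 3) and 1.497%, 0.298% and 0.356% of the control replicates (0.717% ± 0.676, n = 3), and the groups overlapped. The higher control mean came from control replicate 1 alone. Without it the control mean was 0.327%, below that of the OIR samples. Exact 95% intervals, which cover counting error only, ran from 0.189% to 0.490% in OIR replicate 1 and from 1.23% to 1.81% in control replicate 1.

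By transmitter, 160 cells were GABAergic, with a Gad1 or Gad2 UMI, 43 were glycinergic, with Slc6a9 and neither Gad gene, and 19 had none of the 3 genes. GABAergic cells were 77.8%, 55.6% and 60.9% of the typed cells in OIR replicates 1 to 3 and 82.1%, 86.7% and 95.7% in the control replicates. The means were 64.7% ± 11.6 and 88.1% ± 6.91 (SD, n = 3 each), and the groups did not overlap. Since the classes were drawn from choosing genes, this is a description with no test. With at least 3 choosing genes required the means were 81.2% and 92.8%, without overlap. In cells thinned to 1000 UMIs they were 72.2% and 92.2%, and the groups overlapped, with 92.3% in OIR replicate 1 and 81.8% in control replicate 1. With at least 3 genes and no absence rule, added after seeing the data, they were 84.2% and 92.6%, again with overlap, and the difference, OIR minus control, was -8.42 percentage points in place of -23.4. The glycinergic cells of control replicates 2 and 3 numbered 2 and 1. A Pax6 UMI was found in 50.0% and 33.3% of the glycinergic cells of OIR replicates 2 and 3, against 60.0% and 64.3% of their GABAergic cells, and rod markers took 2.62% and 1.67% of the glycinergic UMIs there. The part of these cells in the lower GABAergic share was not tested.

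**Figure D2:**
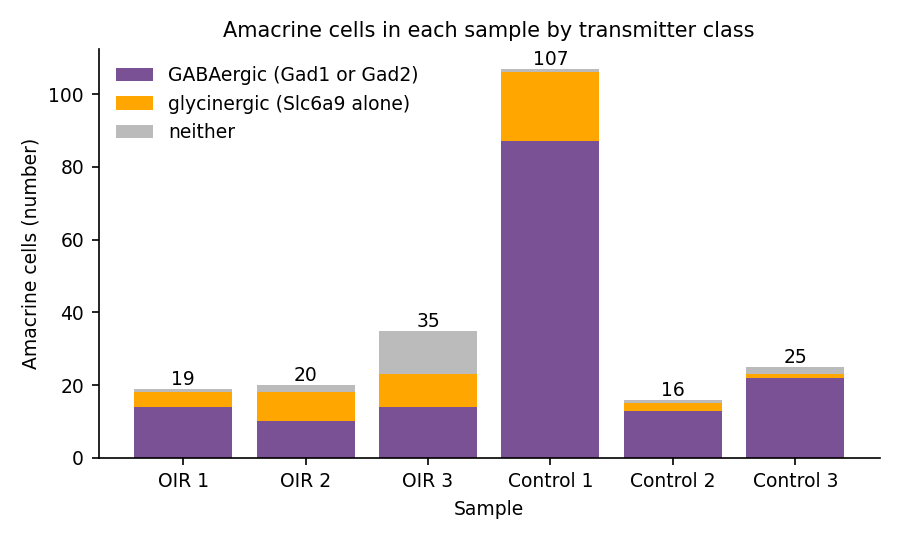
Number of amacrine cells (y axis) in each sample (x axis), stacked by transmitter class. Control replicate 1 holds 107 of the 222 cells, and the glycinergic part is 1 or 2 cells in control replicates 3 and 2.

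GABAergic and glycinergic amacrine cells were then compared with each other, within samples, for genes the classes were not drawn from. Of 1074 genes tested, 71 were higher in GABAergic cells (6.61%) and 37 were higher in glycinergic cells (3.45%) by edgeR's quasi-likelihood test with the sample as a block. A gene was called when its p, adjusted by the Benjamini-Hochberg method, lay under 0.05 and the log2 difference was no smaller than 0.25 either way. The best separated gene was Cartpt. In OIR replicates 1 to 3 it stood at 14656, 405 and 30260 CPM in GABAergic cells and at 0, 258 and 21.7 CPM in glycinergic cells. In the control replicates it stood at 13534, 32608 and 34928 CPM against 21.7, 0 and 0 CPM. GABAergic cells were higher in 6 of 6 samples, with a log2 fold change of 7.95 (SE 0.57, adjusted p 5.07e-40). The test shares its estimate of spread over genes, so this p does not measure the spread of Cartpt alone over 6 samples. In OIR replicate 2 the levels were counts of 14 and 7 UMIs.

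C1ql1, a relative of the choosing gene C1ql2, was at 2280 ± 709 CPM in GABAergic and 29.0 ± 23.8 CPM in glycinergic cells (mean ± SD, n = 6). Pcp4, a small protein that modulates calmodulin, was at 2823 ± 1627 against 71.0 ± 112 CPM, and Rd3l, a relative of a photoreceptor cyclase regulator, at 859 ± 361 against 77.5 ± 113 CPM. Id4, an inhibitor of basic helix-loop-helix factors, was at 434 ± 340 against 12.3 ± 30.1 CPM, and Marcks, an actin-regulating substrate of protein kinase C, at 1401 ± 526 against 99.2 ± 103 CPM. All 5 were higher in GABAergic cells in 6 of 6 samples. OIR replicate 2 was the low GABAergic sample for Cartpt, Pcp4, Rd3l and Marcks, with Pcp4 at 29.0 CPM against 2508 CPM or more in the other 5.

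In the opposite direction, Prox1 was at 513 ± 328 CPM in glycinergic and 64.3 ± 66.0 CPM in GABAergic cells, with a log2 fold change of -3.67 for GABAergic over glycinergic (SE 0.35). Gjd2 differed by -3.21 (SE 0.35), Lamp5, a membrane protein of synaptic vesicles in some inhibitory neurons, by -2.85 (SE 0.34), Car2, a carbonic anhydrase, by -2.91 (SE 0.37), Hspa12a, a distant HSP70 relative, by -2.59 (SE 0.34), and Scn1a, a voltage-gated sodium channel, by -2.51 (SE 0.33). Car2 was higher in glycinergic cells in 6 of 6 samples and the other 5 genes in 5 of 6. The exception was control replicate 2, whose 2 glycinergic cells held 0 UMIs of each of the 5 genes and of Pax6, and 7.58% rod UMIs.

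**Figure D3:**
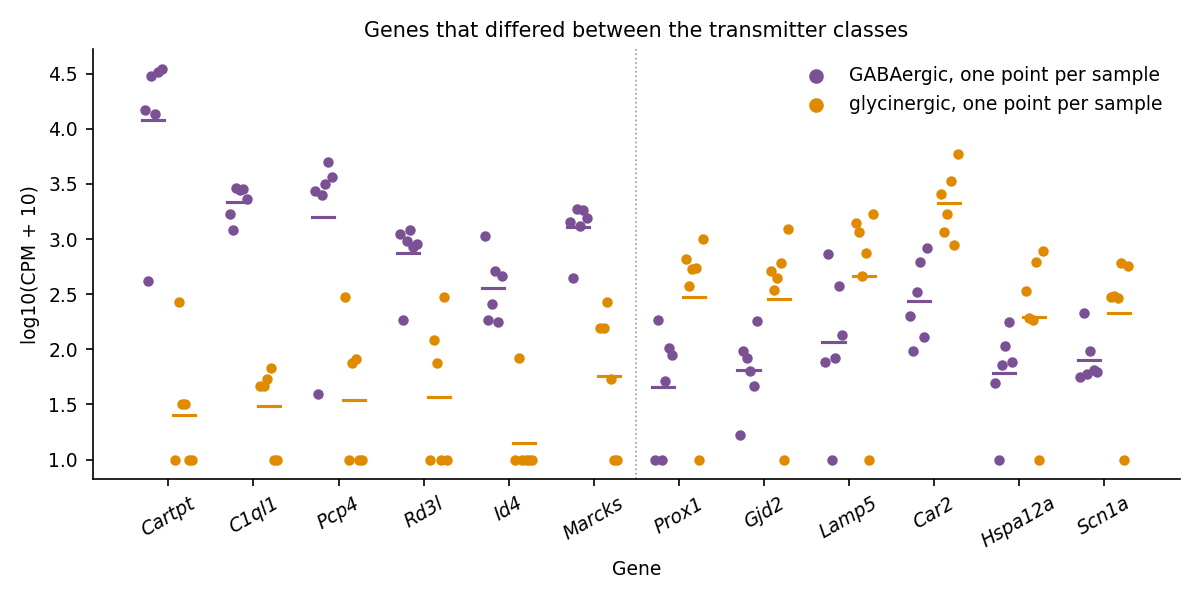
Level, as log10 of CPM plus 10 (y axis), of the 6 named genes higher in GABAergic cells (left of the dotted line) and the 6 higher in glycinergic cells (right) (x axis), with a point for each of 6 samples and a bar at the mean of the log values. Cartpt shows the widest gap, and for 5 of the 6 genes right of the line the glycinergic point at 0 CPM is control replicate 2.

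Among the gene lists, 3 of 7 tested amacrine transcription factors were higher in each class: Pax6, Meis2 and Lmo4 in GABAergic cells and Prox1, Neurod1 and Tcf4 in glycinergic cells. Of all genes tested, 6.61% were higher in GABAergic and 3.45% in glycinergic cells. Of 17 genes of cytoskeleton and axon growth, 9 were higher in GABAergic cells and 0 in glycinergic cells, Marcks among them with Stmn1, Basp1 and Map1b, which act on microtubules or at the growth cone membrane. Of 7 neuropeptide genes, Cartpt and the granins Scg2 and Chgb were higher in GABAergic cells. Of 11 rod markers, 7 were higher in glycinergic cells, Nrl and Pdc among them. In cells with at most 1% rod UMIs, an alternative chosen after seeing the data that left out control replicate 2, 54 and 38 genes were called, of which 49 and 22 were among the 71 and 37. Without the 2 cells with RNA of another type the counts were 67 and 43, with 65 and 32 shared, and Id4, Gjd2 and Hspa12a passed the filter on low counts no longer and were not tested. Nrl was also lost from the calls. Without control replicate 1, 39 genes were higher in GABAergic and 20 in glycinergic cells. Of the 12 named genes, 7 were then tested and all 7 called, while Gjd2, Hspa12a, Id4, Prox1 and Scn1a were not tested.

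OIR was compared with control over the summed amacrine cells of 3 samples against 3, the question the study asked of retinal cell types. Of 3219 genes tested, edgeR's quasi-likelihood test called 0 higher (0%) and 0 lower (0%) in OIR by the same thresholds. DESeq2 called 1, Nnat, a fit with the replicate number as a block called 1, Apoe (log2 fold change 4.98), and 169 genes (5.25%) had an unadjusted p under 0.05 by edgeR. The median log2 fold change of all genes was 0.03 and the median SE 0.37, so that for the typical gene a log2 fold change of 1 came to fewer than 3 SE.

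Since no gene passed, the 5 genes of lowest p in each direction are given as values. Nnat (neuronatin, ENSMUSG00000067786, build GRCm38, chromosome 2, 157560078 to 157562522), a small membrane protein of developing neurons, stood at 257, 729 and 208 CPM in OIR replicates 1 to 3 and at 73.7, 35.1 and 80.0 CPM in the control replicates. Every OIR sample lay above every control sample, and the log2 fold change was 2.58 (SE 0.49, adjusted p 0.424 by edgeR). Its UMIs came from 54 cells, of which the highest held 16.8%. Its span overlaps Blcap on the other strand, and whether the counting used strand is not given in the sources used here. Prdm8, a transcriptional repressor of neurons, stood at 188, 89.3 and 78.1 CPM against 38.4, 26.3 and 61.6 CPM (log2 fold change 1.66, SE 0.43, adjusted p 0.726), again without overlap.

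The other 3 genes of lowest p on the higher side rested on few cells. Sparc, a matrix protein, was at 157, 74.4 and 1888 CPM in OIR and 73.7, 26.3 and 0 CPM in control, and 72.3% of its UMIs were in 1 cell. Apoe, a lipoprotein abundant in glia, was at 3214, 283 and 52.1 CPM against 107, 0 and 6.16 CPM, with 79.3% of its UMIs in 1 cell. These were the 2 cells with stromal and microglial RNA, and without them the log2 fold change of Apoe was 1.22 in place of 4.47 and Sparc was no longer tested. Crybb3, a lens crystallin, was at 612, 238 and 39.1 CPM against 29.3, 35.1 and 80.0 CPM, and was found in 22 cells.

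The 5 genes on the lower side had groups that did not overlap, as 258 of the 3219 genes did with OIR below control (8.01%) and 116 with OIR above (3.6%). Pdgfa, a growth factor that retinal neurons supply to astrocytes, stood at 26.2, 14.9 and 39.1 CPM in OIR and at 82.8, 184 and 129 CPM in control (log2 fold change -1.97, SE 0.50, adjusted p 0.726). Ndnf, a secreted neurotrophic factor, stood at 68.1, 29.8 and 32.6 against 112, 132 and 252 CPM (-1.67, SE 0.46). Car8, a catalytically inactive carbonic anhydrase relative, stood at 57.6, 0 and 45.6 against 126, 114 and 443 CPM (-2.32, SE 0.64). The Pdgfa values in OIR were counts of 5, 1 and 6 UMIs. Eef1e1, a component of the tRNA synthetase complex, differed by -1.30 (SE 0.37) and Lin7a, a synaptic scaffold protein, by -1.03 (SE 0.30). With a term for sex, Car8, Ndnf, Pdgfa and Eef1e1 had log2 fold changes of -1.52, -1.16, -1.42 and -0.95. Without control replicate 3 that of Car8 was -1.49, and without OIR replicate 1 that of Prdm8 was 1.05. Adjusted p-values of the 10 genes ranged from 0.424 to 0.778.

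**Figure D4:**
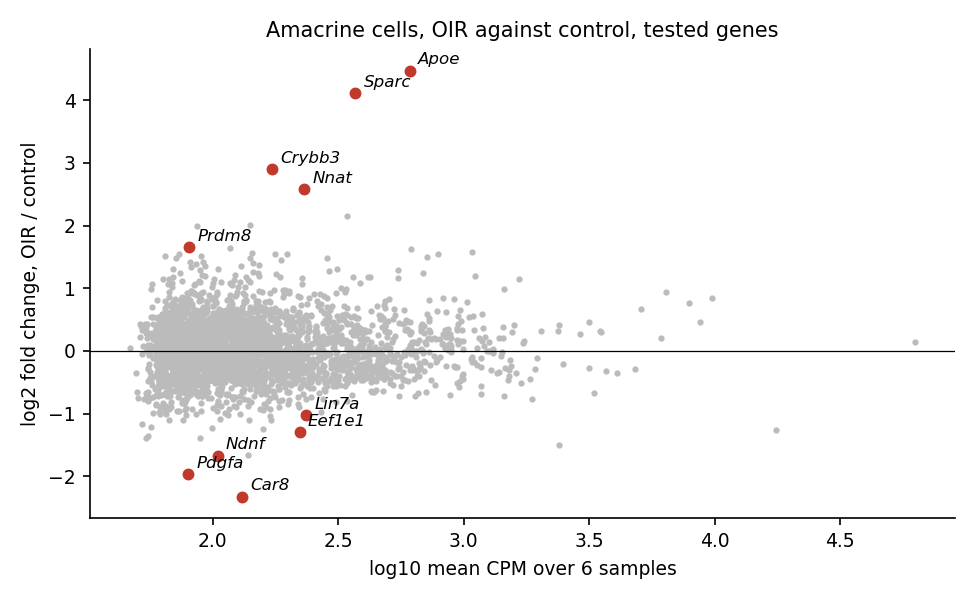
Log2 fold change of OIR over control (y axis) against the log10 mean CPM over the 6 samples (x axis) for the 3219 genes tested in summed amacrine cells. Red points are the 5 genes of lowest p in each direction, none of which passed the adjusted threshold; Apoe and Sparc rest mainly on 1 cell each.

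In the gene lists as well no gene was called (0% of all genes tested), and each list is described by its counts beside the median of all genes, 0.03. Genes of inhibitory and excitatory signalling lay close to that median. The 8 tested receptors for GABA and glycine had a median of 0.02, the 9 glutamate receptors 0.00, and the 5 genes of GABA and glycine transport 0.09. Gria2, the AMPA receptor subunit that limits calcium entry, stood at 581, 2024 and 1009 CPM in OIR and 521, 1089 and 1053 CPM in control, highest in OIR replicate 2. The 20 tested genes of synaptic vesicles and release had a median of -0.18, with 12 below 0. Rab3a, a vesicle GTPase, was lower in every OIR sample than in any control sample, at 1000, 402 and 527 CPM against 1162, 1080 and 1133 CPM (log2 fold change -0.71, SE 0.33).

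The neuropeptide sum moved mostly with Cartpt. Cartpt stood at 11595, 313 and 18212 CPM in OIR and at 11630, 31181 and 32723 CPM in control (log2 fold change -1.25, SE 0.90, adjusted p 0.887 by edgeR). The groups overlapped, and OIR replicate 2, with Cartpt UMIs in 2 of 20 cells, stood far below the rest. The summed level of the 21 neuropeptide genes was 14336 ± 8202 CPM in OIR and 29396 ± 11450 CPM in control (SD, n = 3 each), although the median log2 fold change of the 10 tested was 0.12, the opposite sign. Calcium-binding proteins summed to 9737, 3944 and 5643 CPM in OIR and to 10545, 10478 and 10723 CPM in control, without overlap, and 7 of the 9 tested lay below 0 (median -0.47). OIR replicates 2 and 3 also had the highest rod marker sums, at 13973 and 17692 CPM. Their GABAergic shares were the lowest, at 55.6% and 60.9%, and Pcp4, of this list, was higher in GABAergic cells. The part of either in the lower sums was not tested. Pcp4 was the gene of lowest p in the list, at 2172, 14.9 and 1393 against 2701, 4752 and 3367 CPM (log2 fold change -1.51, SE 0.75). Calm3, one of the calmodulin genes, was also below control in every OIR sample.

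Amacrine transcription factors had 8 of 11 tested genes above 0 (median 0.31). Ebf1 was found in only 13 cells and stood at 73.3, 476 and 91.1 CPM in OIR against 24.2, 176 and 0 CPM in control. Bhlhe22, a factor of GABAergic amacrine cells, was at 440, 104 and 71.6 against 96.9, 52.7 and 148 CPM, with overlap. Prox1 stood at 115, 238 and 169 against 111, 87.8 and 129 CPM.

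Immediate early genes, which neurons induce quickly on activity or stress, had all 8 tested genes above 0, with a median of 1.08, and 5 of the 8 had an unadjusted p under 0.05 against 5.25% of all genes. Egr1 stood at 194, 119 and 234 CPM in OIR and at 90.9, 8.78 and 55.4 CPM in control (log2 fold change 1.65, SE 0.46, adjusted p 0.726). Fos stood at 471, 417 and 449 against 320, 132 and 240 CPM (0.99, SE 0.33, adjusted p 0.884). Both were higher in every OIR sample than in any control sample. In GABAergic cells alone Fos overlapped, at 556, 348 and 235 CPM in OIR and 360, 119 and 224 CPM in control. In OIR replicate 3, glycinergic cells, which include the cell with stromal RNA, held 35 Fos UMIs and GABAergic cells 19. The 23 genes of the list summed to 2670, 1816 and 2168 CPM in OIR and to 1774, 887 and 1176 CPM in control. Without the 2 cells with RNA of another type the OIR sums were 2338, 1816 and 1768 CPM, so that the groups overlapped by a few CPM. By the interaction term, 0 of 19 tested genes of the list were called against bipolar cells (0.127% of all genes higher), with 15 of the 19 above 0 and a median of 1.15 against -0.02 over all genes. Against Müller cells 0 of 22 were called, with 13 above 0 and a median of 0.43 against -0.06.

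Energy genes had no called member. The 12 tested genes of the mitochondrial genome had a median of 0.42, and mt-Co3, which overlaps mt-Atp6 on the same strand, stood at 10454, 17619 and 8755 CPM in OIR and 9728, 6368 and 5842 CPM in control. The 61 nuclear genes of oxidative phosphorylation had 51 below 0, with a median of -0.24, and Cox8a stood at 1413, 774 and 1146 against 1348, 1353 and 1711 CPM. Of 22 tested hypoxia-response genes, 8 were above 0 and 14 below (median -0.15), and 16 glycolysis genes had a median of -0.20. Gapdh stood at 4638, 1949 and 2988 against 4264, 3996 and 4315 CPM, while Pfkp, a phosphofructokinase, stood at 340, 402 and 299 against 244, 123 and 197 CPM. Of 33 angiogenic and guidance ligands 4 were tested, and Vegfa, the chief hypoxia-induced growth factor of vessels, was too low for the test, at 41.9, 119 and 26.0 CPM in OIR and 52.5, 52.7 and 80.0 CPM in control. Slit2, a guidance ligand also listed for starburst cells, stood at 251, 402 and 117 against 109, 114 and 123 CPM.

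Markers of other cell types moved with the group in some samples. Of the 13 rod markers 12 lay above 0 (median 1.19), and their sum was 2466, 13973 and 17692 CPM in OIR and 5563, 6921 and 3275 CPM in control, highest in OIR replicates 2 and 3. The most abundant was Sag, at 325, 3423 and 2981 against 1011, 1397 and 856 CPM. Müller glia markers summed to 3670, 1161 and 644 CPM against 603, 413 and 499 CPM, led by Apoe, with Cp at 0 and Rlbp1 at 0 by the rule. Microglia markers summed to 2345, 164 and 26.0 CPM against 59.6, 26.3 and 0 CPM, and the 9 stromal genes to 10011 CPM in OIR replicate 3 and to 59.5 CPM or less elsewhere. Col1a2 was the most abundant of the stromal genes. The Müller and microglia sums of OIR replicate 1 and the stromal sum of OIR replicate 3 rested mainly on the 2 cells named above. Without them Müller markers summed to 548, 1161 and 674 CPM in OIR, overlapping the control samples, microglia markers to 28.0, 164 and 21.3 CPM, and stromal genes to 5.59, 59.5 and 0 CPM. Bipolar markers summed to 162, 208 and 273 against 280, 132 and 30.8 CPM. Without the 2 cells, Nnat, Prdm8, Egr1, Pdgfa, Ndnf and Car8 had log2 fold changes of 2.62, 1.68, 1.66, -1.91, -1.62 and -2.27. Without amacrine cells that held a bipolar marker UMI, the log2 fold change of Nnat was 1.44 in place of 2.58 and that of Sparc 1.04 in place of 4.11, Pdgfa was no longer tested, and Prdm8, Ndnf and Car8 had 1.56, -1.66 and -2.78. With no upper limit on genes per cell, Nnat, Prdm8 and Sparc had 1.07, 0.95 and 2.15. In cells with at most 1% rod UMIs Nnat, Prdm8, Pdgfa, Ndnf and Car8 had 2.74, 1.72, -1.79, -1.54 and -2.18. When OIR replicate 1, the sample with the least rod RNA, was left out, 28 genes were called higher and 2 lower, and rod genes such as Nr2e3, Nrl, Pdc, Prph2 and Sag were among the higher ones. Without control replicate 1 the 3 calls were Xist, Tsix and Eif2s3y, which differ between the sexes.

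**Figure D5:**
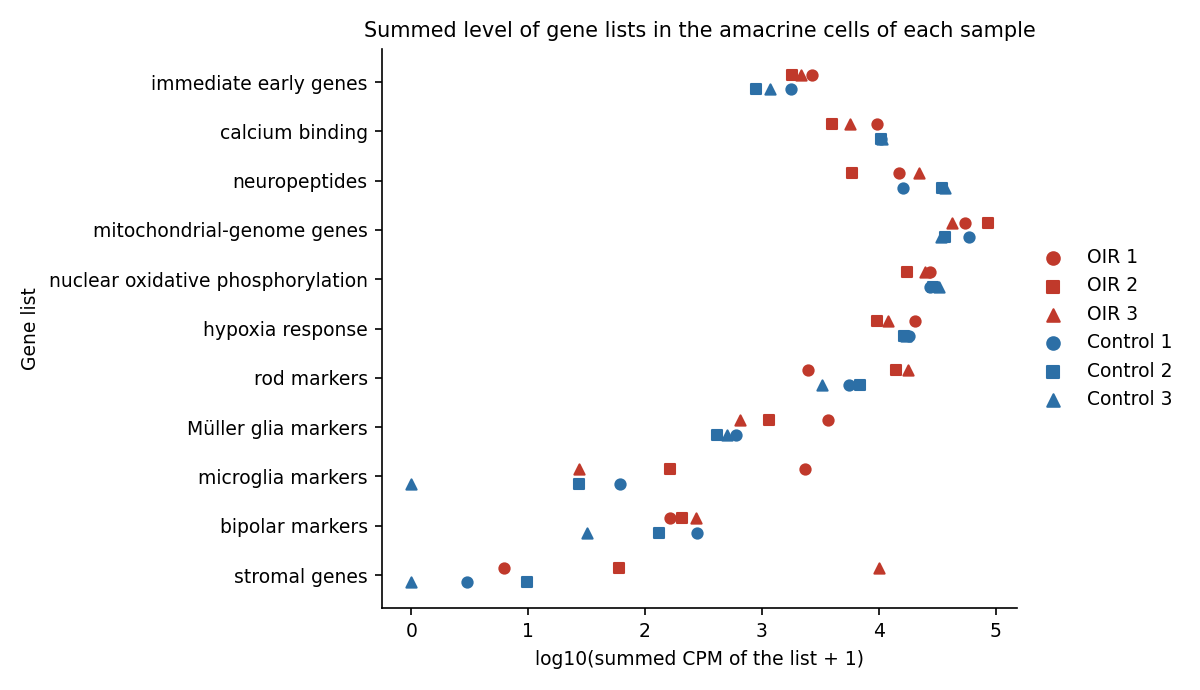
Summed level of gene lists in the amacrine cells of each sample, as log10 of CPM plus 1 (x axis), for 11 lists (y axis), with OIR samples in red, control samples in blue and a marker shape for each replicate number. With all amacrine cells, immediate early genes lie higher and calcium-binding genes lower in the 3 OIR samples, rod markers are highest in OIR replicates 2 and 3, and microglia and stromal genes stand out in 1 OIR sample each.

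Taken by class, GABAergic cells gave 0 called genes of 2736 (0% in each direction; edgeR, 71 at an unadjusted p under 0.05, and 1 gene, Nnat, by DESeq2), and glycinergic cells gave 0 of 381 (6 at an unadjusted p under 0.05, and 0 by DESeq2). Nnat in GABAergic cells had a log2 fold change of 2.97, Egr1 1.71, Ndnf -1.65 and Pdgfa -1.49. The test of the difference between the classes called 1 of 1696 genes (0.059%), Cdkn1c, a cell cycle inhibitor, at -6.06 (SE 1.44, adjusted p 0.0462). That call was lost when the cell with stromal RNA was removed (-1.07, adjusted p 1). It was also lost with no filter on low counts, when any OIR replicate was left out, and without control replicate 1 or 3. Only library size scaling and leaving out control replicate 2 kept it. In the amacrine sums Cdkn1c stood at 10.5, 0 and 931 CPM in OIR and at 162, 474 and 148 CPM in control.

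To ask whether OIR moved amacrine cells differently from other retinal cells, the interaction of class and group was tested against bipolar cells and against Müller cells, with the sample as a block. Against bipolar cells, 14 genes were relatively higher (0.127%) and 4 relatively lower (0.0362%) in OIR amacrine cells, of 11064 tested. Against Müller cells, 43 were relatively higher (0.375%) and 17 lower (0.148%) of 11455. Over the amacrine sums alone 3219 genes passed the filter on low counts. Many genes tested here thus passed it only through the bipolar or Müller sums and were near the floor in amacrine cells. Without the 2 cells with RNA of another type the counts were 8 and 11 against bipolar cells and 33 and 29 against Müller cells, with 10 and 33 of the first calls kept. Without control replicate 1 they fell to 1 gene, Pde10a, and to 18 genes, of which 11 were among the first calls. Without OIR replicate 1 they rose to 280 genes against bipolar cells and 199 against Müller cells. The test estimates 1 spread per gene for both classes, and the small amacrine sums are then assumed to vary like the large ones.

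Pde10a, a cyclic nucleotide phosphodiesterase, was the gene called against bipolar cells under 2 settings, without the 2 cells and without control replicate 1. It stood at 180 ± 64.6 CPM in OIR and 148 ± 62.4 CPM in control amacrine cells, and at 15.6 ± 10.7 and 89.9 ± 25.0 CPM in bipolar cells (mean ± SD, n = 3 each). The difference of the log2 fold changes was 2.63 (SE 0.44, adjusted p 0.0015 by edgeR), and it lay mostly in the bipolar cells, where Pde10a was lower in OIR (log2 fold change -2.39, adjusted p 0.0158). The same was seen for Matk, a tyrosine kinase, Col23a1, a transmembrane collagen, and Marcks, which were higher in OIR bipolar cells (3.33, 1.89 and 1.21 on the log2 scale) and stood at similar or lower levels in the amacrine groups. Kcnip4, a regulator of A-type potassium channels, stood at 52.3, 149 and 71.6 CPM in OIR amacrine cells and at 10.1, 8.78 and 12.3 CPM in control, against 68.1 ± 3.96 and 84.0 ± 12.7 CPM in bipolar cells. Its difference was 3.32 (SE 0.53), but its UMIs came from 22 amacrine cells. The amacrine values of control replicates 2 and 3 were near the floor, where 1 UMI came to 6.16 CPM in control replicate 3. The span of Kcnip4 overlaps 2 genes on the other strand, of which 5730480H06Rik held 37 UMIs against 44 of Kcnip4. Nnat had a difference of 2.28 (SE 0.45, adjusted p 0.0101), with 320 ± 85.0 CPM in OIR and 278 ± 55.9 CPM in control bipolar cells.

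Against Müller cells, 8 genes were called both without the 2 cells and without control replicate 1, of which Nfib, Pdgfa and Uchl1 are named here after their values were seen. Egfl7, a secreted factor best known from endothelium, stood at 15.7, 14.9 and 13.02 CPM in OIR amacrine cells, which were counts of 3, 1 and 2 UMIs, at 49.2 ± 15.5 CPM in control amacrine cells, and at 45.6 ± 9.40 and 9.52 ± 5.86 CPM in Müller cells, where it was higher in OIR (log2 fold change 2.08, adjusted p 0.0325). The difference was -4.01 (SE 0.62, adjusted p 0.000264). Endothelial markers, Egfl7 among them, summed to 62.8, 74.4 and 39.1 CPM in OIR amacrine cells. In control amacrine cells they summed to 359, 70.3 and 55.4 CPM, with overlap. The part of endothelial RNA in the Egfl7 difference was not tested. Pdgfa differed by -2.49 (SE 0.54, adjusted p 0.0126), with 16.1 ± 3.28 and 12.7 ± 1.74 CPM in OIR and control Müller cells. Uchl1, a neuronal ubiquitin hydrolase, was at 233 ± 146 CPM in OIR and 450 ± 22.1 CPM in control amacrine cells and differed by -1.92 (SE 0.46). Cartpt differed by -4.60 (SE 0.81), and its amacrine groups overlapped, as given above. In Müller cells Cartpt stood at 67.9 ± 94.2 CPM in OIR and 6.78 ± 4.18 CPM in control. Its Müller log2 fold change was 3.20 (adjusted p 0.212 by edgeR, not called). The part of amacrine RNA in the Müller sums was not tested. Kit, a receptor tyrosine kinase, differed by -2.68 (SE 0.50). In amacrine cells it stood at 47.1, 0 and 228 CPM in OIR and at 80.8, 193 and 234 CPM in control, with overlap. In Müller cells Kit stood at 34.7 ± 12.9 and 12.1 ± 8.20 CPM (log2 fold change 1.61, adjusted p 0.205 by edgeR, not called). On the higher side, Kcnip4 differed by 4.91 (SE 0.73), with 3.23 ± 0.667 CPM in OIR and 12.8 ± 1.37 CPM in control Müller cells. Nfix and Nfib, nuclear factor I proteins that appear late in retinal development, differed by 3.54 (SE 0.65) and 3.12 (SE 0.66). Nfix stood at 168, 0 and 202 CPM in OIR and at 15.1, 0 and 6.16 CPM in control amacrine cells, and was found in 19 cells, with no UMI in OIR replicate 2 or control replicate 2. In Müller cells Nfix stood at 490 ± 34.9 and 490 ± 5.90 CPM and Nfib at 375 ± 22.03 and 343 ± 38.8 CPM in OIR and control, above every amacrine value. The part of Müller RNA in these differences was not tested.

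Hypoxia-response genes had no called difference between the classes. Against bipolar cells, 35 of these genes were tested by the interaction, 7 lay above 0, and the median was -0.66 against -0.02 over all genes. Within bipolar cells alone 7 of 36 tested hypoxia-response genes were higher in OIR (0.677% of all genes) and within Müller cells 2 of 39 (0.537%), while in amacrine cells 0 of 22 were called. The difference between these counts was tested only gene by gene, through the interaction. Over the genes tested, the median SE of the log2 fold change was 0.37 in amacrine, 0.19 in bipolar and 0.21 in Müller cells. No gene of any kind was called in amacrine cells, so these counts cannot be compared directly.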

How the data were processed

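Whole retinas of 3 OIR and 3 control samples were profiled by droplet single-cell RNA sequencing (10x Genomics). The authors deposited raw UMI counts per gene and cell barcode (47631 barcodes, 31053 genes, 15788524 to 42606878 UMIs per sample), and replicates were not pooled. The submitters' processing notes name build mm10, and version 3.1.0 of the software stands in each matrix header; the study's methods name another version and a human build for the alignment, and the gene names and identifiers in the files are those of mouse. Gene positions were taken from a GRCm38 annotation. No column of per-sample values was left unused.

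Cells with 500 to 5000 genes and at most 20% mitochondrial UMIs were kept, as in the study. No doublet caller was run, and of 281 cells with at least 2 of the 7 genes, 59 were removed by the 3 absence genes. Amacrine cells were found by detected genes, and counts were summed per sample and, for class comparisons, per sample and class. Sums were tested with edgeR 4.0.16 (R 4.3.3; TMM, filterByExpr, quasi-likelihood F-test, Benjamini-Hochberg adjustment); genes were called where the adjusted p lay under 0.05 and the log2 difference was no smaller than 0.25 either way. The 10 genes of the rule were left out of tests. Interactions used 12 sums with the sample as a block. DESeq2 1.42.0 was an alternative. The labels number the replicates of both groups alike. Same-numbered samples deviated together over all cells, with correlations of 0.67, 0.30 and 0.51, and less so over the amacrine sums, with 0.10, 0.04 and -0.07. The numbers may therefore pair the samples, on the evidence of the data alone. The main fits of OIR against control used no replicate block and so take no account of such pairing. The fit with a replicate block is given where it moves a count. Shares of cells, set by the choosing genes, are described without a test (intervals from SciPy 1.17.1). The study tested cells. Here samples were the replicates, and whether they are separate litters is not given. The p-values thus measure the spread between these samples only, as estimated with information shared over genes. Scripts were tested on simulated data. The amacrine cells, gene lists and tests were chosen with earlier results of these data known.

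Named genes were, for OIR against control, the 5 genes of lowest p in each direction, since none was called; for class comparisons, up to 6 called genes of lowest p in each direction; and for lists, genes of lowest p and most abundant genes. Sex-linked and predicted genes were left out of these names. Alternatives were the other tool, library size scaling, leaving each sample out, testing genes of any count, a replicate block, a sex term, and other cell rules. Some genes are not reported here.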

Additional observations from a re-analysis of the deposited data

Results flagged for a closer look

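The OIR effect differed between amacrine and bipolar cells, by the interaction term of edgeR's fit, in 10 named genes. The log2 difference was 5.27 for Ctss, 4.64 for C1qa, 4.51 for C1qc, 3.79 for Spag5, 3.32 for Kcnip4 and 2.63 for Pde10a, and it was -4.84 for Igfbp2, -3.45 for Matk, -2.19 for Col23a1 and -1.91 for Marcks. Ctss, C1qa and C1qc, which are genes of microglia, were no longer called without the 2 cells with RNA of another type, and the other 7 were. Without control replicate 1 only Pde10a of the 10 was called.

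Between amacrine and Müller cells the log2 difference was 9.68 for Mgst1, 6.04 for Plpp3, 5.87 for Igfbp5, 5.13 for Ctss, 4.91 for Kcnip4 and 3.54 for Nfix, and it was -5.48 for Tnfrsf12a, -4.60 for Cartpt, -4.01 for Egfl7, -2.68 for Kit, -2.41 for Phlda1 and -1.94 for Tubb2a. Mgst1 was at 0 in all control amacrine sums and in OIR replicates 1 and 2, so its value depends on the prior count and is no bound. Tnfrsf12a was also near 0, at 5.23, 0 and 0 CPM in OIR and 18.2, 0 and 6.16 CPM in control amacrine sums. Its difference was -9.95 without OIR replicate 1, and it was not called without control replicate 1. Mgst1, Plpp3, Igfbp5 and Ctss were not called without the 2 cells, and the other 8 were. Without control replicate 1, 7 of the 12 were called, Cartpt, Egfl7, Kcnip4, Kit and Nfix among them.

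Between GABAergic and glycinergic cells the OIR effect differed for Cdkn1c, by -6.06, and the call was lost without the cell with stromal RNA. Of the alternatives run for this comparison, only library size scaling and leaving out control replicate 2 kept the call.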

How the results depend on the processing

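Over amacrine cells, the count of 0 called genes between OIR and control became 1 with DESeq2, 108 with no filter on low counts, 1 (Apoe) with a replicate block and 11 with replicates 2 and 3 alone, and ranged from 0 to 30 when 1 sample was left out. GABAergic cells gave 1 with DESeq2, 15 with no filter and 0 to 1 with a sample left out, and glycinergic cells gave 18 with no filter and 0 to 1. Neither gave a call with the replicate block (0 and 0). With no filter, the classes gave 452 genes in place of 108, and their OIR effects differed in 4 genes in place of 1, in 64 in place of 18 against bipolar cells and in 129 in place of 60 against Müller cells. With a sample left out these counts ranged from 59 to 144, 0 to 2, 1 to 280 and 18 to 199. Without the 2 cells with RNA of another type, a choice made after seeing the data, the classes' OIR effects differed in 0 genes, the difference of C1qa and C1qc against bipolar cells turned to -1.45 and -0.32, and that of Plpp3 against Müller cells to -3.66 (-3.83 to 10.24 with a sample left out, lowest without OIR replicate 3). The causes were not tested. The difference in the share of amacrine cells, OIR minus control, ranged from -0.545 to 0.055 percentage points with a sample left out, and turned positive without control replicate 1. The sums of 16 to 35 cells in 5 of the 6 samples limit every OIR comparison, more so for small changes. In simulated data for amacrine OIR against control, 8.5% of genes changed 2-fold were recovered, and 93.5% of those changed 4-fold. For the interaction of amacrine against bipolar cells, 0% were recovered at 2-fold, 44.5% at 4-fold and 75% at 16-fold. The simulated spread followed the fitted trend alone, without RNA concentrated in single cells. These shares may therefore be too high for the real genes, and an uncalled gene may still have changed.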
